A study of Homo sapiens with 12 samples.

Results

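Cationic amino acid transporters and arginine sensors were followed in RKO cells, a human colon cancer line, during arginine shortage. The set held 6 genes, chosen by name with earlier results of these data known. They were read by 11 listed Ensembl transcript identifiers, of which exactly 1 per gene was found among the 19686 transcripts of the RNA table and the 19849 of the footprint table. These were ENST00000380752 for SLC7A1, ENST00000004531 for SLC7A2, ENST00000298085 for SLC7A3, ENST00000219343 for SLC7A6, ENST00000318672 for SLC38A9 and ENST00000407689 for CASTOR1. Starved cells were held for 24 hours in 12.5 uM arginine, and fed cells for the same time in 400 uM arginine. All cultures were of genotype WT and were kept in DMEM made without arginine, with dialyzed serum and arginine added back. RNA-seq measured transcript levels, and ribosome profiling, which sequences the mRNA fragments (footprints) that ribosomes shield from nuclease, measured ribosome occupancy, with 3 libraries per group and assay and 12 in all. Separate cultures are not stated for the 3 libraries of a group, and p-values therefore reflect only how these libraries vary, which could be technical variation alone. Each value is an average over a culture of 1 line, in which a change in every cell and a larger change in some cells cannot be told apart. Library totals ran from 4670881 to 7967215 counts for RNA and from 2063952 to 4364383 for footprints. Identity markers of the line were not checked here, since the tables carry no gene names.

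Human cells take up arginine, lysine and ornithine mainly through the cationic amino acid transporters of the SLC7 family. SLC7A1 (CAT-1) is the broadly expressed carrier. SLC7A2 (CAT-2) exists in splice forms of high and low affinity, and SLC7A3 (CAT-3) is best known from neurons. SLC7A6 (y+LAT-2) works only when joined to the heavy chain SLC3A2 and exchanges arginine from inside the cell for neutral amino acids and sodium from outside. Arginine inside the cell is reported to the growth kinase complex mTORC1 by SLC38A9, a transporter-like protein of the lysosome membrane, and by CASTOR1, a cytosolic protein that holds back the GATOR2 complex until it binds arginine.

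Amino acid shortage activates the kinase GCN2 and the transcription factor ATF4, which acts through composite C/EBP-ATF elements. In rat, such an element in the first exon of the Cat-1 gene is known to drive its transcription during amino acid starvation, and an internal ribosome entry site in the Cat-1 leader is known to keep it translated. The region around the start of human SLC7A1 is therefore shown. RefSeq promoter windows (build GRCh38.p14, 250 bases before to 50 after each annotated start) were matched by symbol for 4 of the 6 genes, SLC7A1, SLC7A6, SLC38A9 and CASTOR1. Both strands were searched for the letters TGATGNAAN. The SLC7A1 window held 1 match, on the strand of the gene, at bases 8 to 16 counted from 1 at the start. It is in capitals in the 30 bases around it, chr13:29595662-29595691, minus strand:
SLC7A1 around the match: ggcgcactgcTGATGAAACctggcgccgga
No match stood in the windows of SLC7A6, CASTOR1 or the 3 windows of SLC38A9. These letters occurred in 3.61% of all 35116 windows of the same length, and in at least 1 window of 4.45% of 27305 genes. A match describes the letters and is not a measured site.

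The bases before the start were compared between SLC7A1 and SLC7A6, both of which had more RNA in starved cells (values below). GC boxes, GGGCGG on either strand, are in capitals. The SLC7A1 stretch is chr13:29595689-29595938 on the minus strand and the SLC7A6 stretch chr16:68264276-68264525 on the plus strand.
SLC7A1 before the start: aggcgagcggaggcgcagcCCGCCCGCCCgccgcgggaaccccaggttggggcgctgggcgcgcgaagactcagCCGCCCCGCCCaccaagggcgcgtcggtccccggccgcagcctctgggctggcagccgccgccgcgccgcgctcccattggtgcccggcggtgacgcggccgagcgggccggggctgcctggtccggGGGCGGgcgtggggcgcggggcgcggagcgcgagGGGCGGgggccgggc
SLC7A6 before the start: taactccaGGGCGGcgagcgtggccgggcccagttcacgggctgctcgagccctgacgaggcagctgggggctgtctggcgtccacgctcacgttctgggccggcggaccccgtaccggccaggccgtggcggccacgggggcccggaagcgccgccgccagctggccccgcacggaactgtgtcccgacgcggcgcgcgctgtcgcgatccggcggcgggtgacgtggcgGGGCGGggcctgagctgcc
SLC7A1 held 6 GC boxes, 4 of them on the opposite strand as 2 overlapping pairs, and SLC7A6 held 2. The CASTOR1 window held 3 and those of SLC38A9 none, and 45.0% of all windows held at least 1. How many windows held as many as 6 was not counted, and whether GC boxes go with the RNA change was not tested. GC content was 84.4% before the SLC7A1 start and 77.6% before that of SLC7A6, against a median of 58.0% over all windows.

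RNA of 3 carriers was higher in starved cells, with SLC7A1 by far the most changed. SLC7A1 rose 3.48-fold, SLC7A2 1.47-fold and SLC7A6 1.43-fold, while the lysosomal sensor SLC38A9 did not pass the test. SLC7A3 had no RNA count, and CASTOR1 had too few for the test. Counts were tested over the whole table with edgeR's quasi-likelihood test, and "called" means a Benjamini-Hochberg adjusted p under 0.05. Of the 6 genes 4 passed the filter on low counts, and 3 of these were called, all higher. Over all 11572 transcripts tested, 67.9% were called, 33.8% higher and 34.1% lower, so a call as such was common. With library totals in place of TMM factors the calls were 3192 higher and 4675 lower, against 3911 and 3951. Log2 fold changes are given as starved over fed throughout. They use TMM scaling factors, so they compare each gene with the bulk of the transcripts in its assay and are not exactly the ratios of the printed CPM.

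**Figure D1:**
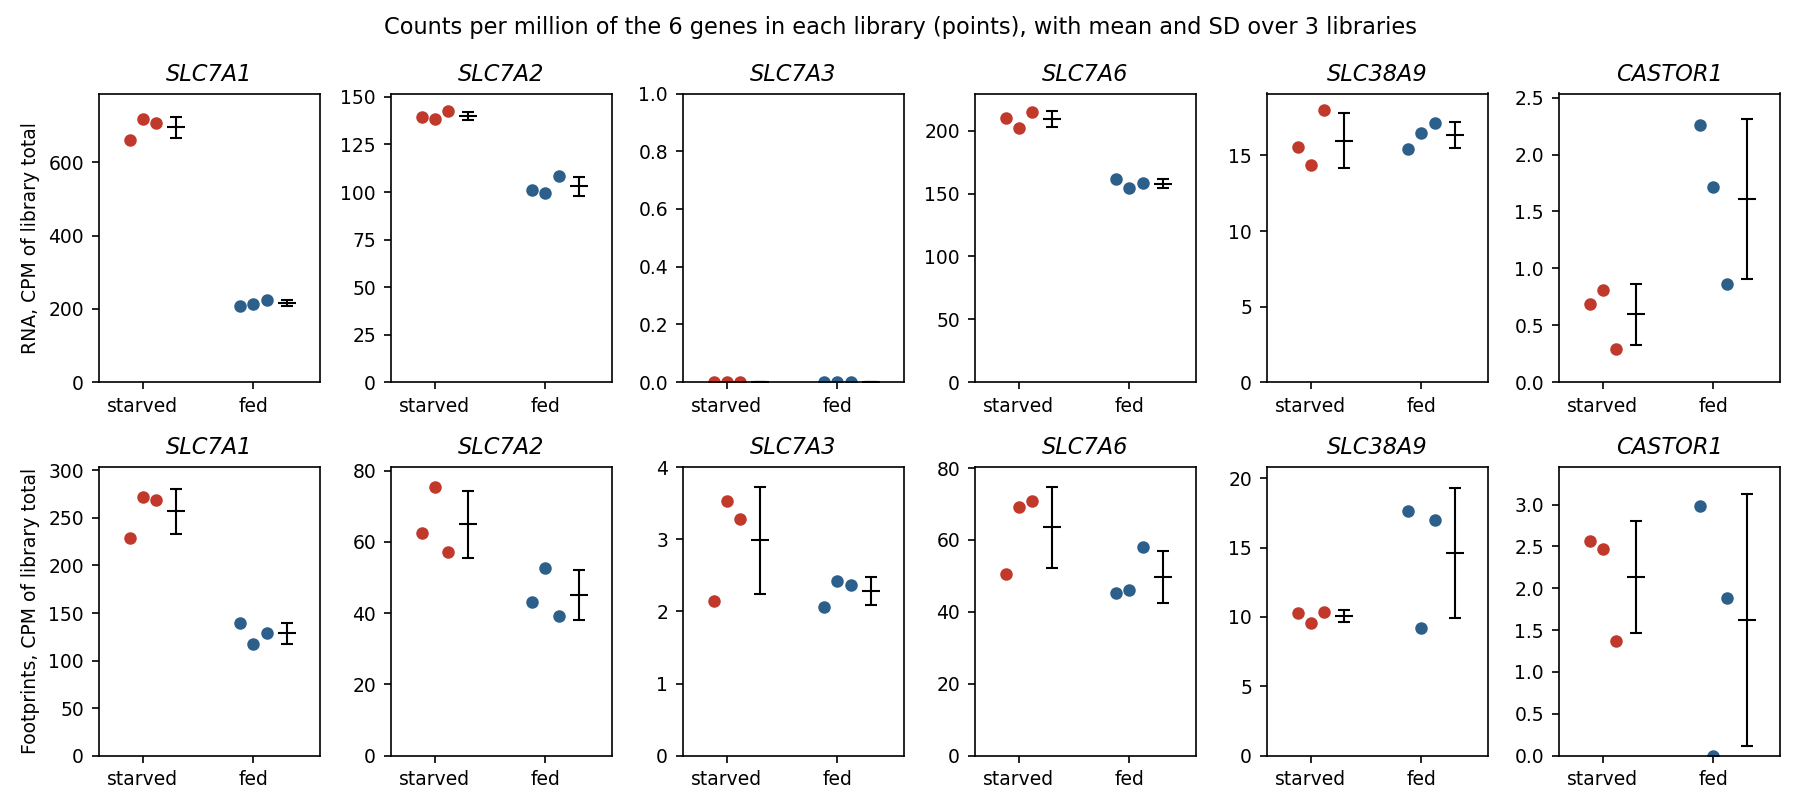
Counts per 1e+06 of the library total (CPM) for each gene in each of the 12 libraries, RNA in the upper row and footprints in the lower, on linear axes that start at 0 and differ between panels. Points are the 3 libraries of starved (red) and fed (blue) cells in order of replicate number, and bars give mean and SD. SLC7A1 RNA lies between 663 and 718 CPM in starved and between 208 and 225 CPM in fed libraries, and SLC7A3 has no RNA count.

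SLC7A1 RNA stood at 663, 718 and 707 CPM in the starved libraries, against 208, 214 and 225 CPM in the fed libraries. The lowest starved library was far above the highest fed one, and libraries of a group lay close together. Groups that do not overlap were common, at 69.7% of tested transcripts in RNA (28.6% with starved higher) and 50.6% in footprints (26.6% with starved higher). The means were 696 ± 29.2 CPM in starved and 216 ± 8.43 CPM in fed cells (SD, n = 3 each), which is a change of 1.80 on the log2 scale with an SE of 0.072 and an edgeR adjusted p = 2.75e-32. Only 181 of the 11572 tested transcripts had a larger RNA log2 fold change. The call held under each of the 12 alternatives tried, with log2 fold changes between 1.64 and 1.84.

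SLC7A2 RNA was 139, 138 and 142 CPM in starved libraries, against 101, 99.3 and 109 CPM in fed libraries. The groups did not overlap, and the step was much smaller than that of SLC7A1. With means of 140.0 ± 2.06 CPM in starved and 103 ± 4.93 CPM in fed cells (SD, n = 3 each), its log2 fold change was 0.56 with an SE of 0.072 and an edgeR adjusted p = 4.96e-10. The listed transcript is 1 of 3 identifiers given for the gene, and which splice form of the carrier its counts represent was not tested.

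SLC7A6 RNA was 210.4, 202 and 215 CPM in starved libraries, against 161, 154 and 158 CPM in fed libraries. Again every starved library was above every fed one. Its means of 209 ± 6.35 CPM in starved and 158 ± 3.65 CPM in fed cells (SD, n = 3 each) differed by 0.52 on the log2 scale, with an SE of 0.069 and an edgeR adjusted p = 1.17e-09. Both smaller changes, of SLC7A2 and SLC7A6, stayed called under each of the 12 alternatives, but their size depends on the scaling. With library totals alone, which moved the median of all transcripts by −0.11, they were 0.44 for SLC7A2 and 0.40 for SLC7A6, and after removal of a trend with abundance they were 0.40 for SLC7A2 and 0.34 for SLC7A6.

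The SLC7A carriers could also be set against each other within a library, where no scaling factor enters. These ratios were added after the values had been seen. SLC7A1 counts were 4.75, 5.19 and 4.97 times those of SLC7A2 in starved RNA libraries, against 2.06, 2.16 and 2.07 times in fed ones. Relative to SLC7A6 the ratio was 3.15, 3.55 and 3.29 in starved RNA libraries, against 1.29, 1.39 and 1.42 in fed ones. Since transcript length is the same in every library, these ratios compare the balance between the carriers across libraries and do not say which of them is more abundant. The rise of SLC7A1 exceeded that of SLC7A2 by 1.24 on the log2 scale (SE 0.042) and that of SLC7A6 by 1.28 (SE 0.065). Each reached p = 0.1 in a two-sided exact permutation test (0.1 after Benjamini-Hochberg adjustment over 6 ratios), the smallest p that 3 against 3 libraries can give. SLC7A1 held 65.4%, 67.8% and 66.4% of the combined RNA counts of SLC7A1, SLC7A2, SLC7A3 and SLC7A6 in starved libraries, against 44.3%, 45.8% and 45.7% in fed libraries. Among the exact Clopper-Pearson 95% intervals of these shares, which cover counting error only, the lowest bound of a starved library was 64.4% and the highest bound of a fed library 47.9%.

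SLC38A9, the lysosomal arginine sensor, had 15.6, 14.4 and 18.0 CPM of RNA in starved libraries, against 15.4, 16.5 and 17.2 CPM in fed libraries. The groups overlapped, with means of 16.0 ± 1.84 CPM in starved and 16.4 ± 0.865 CPM in fed cells (SD, n = 3 each). The log2 fold change was 0.086 with a 95% interval of −0.19 to 0.36 (edgeR adjusted p = 0.59), and its sign turned with library totals alone, to −0.028. SLC7A1 RNA rose more than that of SLC38A9 by 1.73 on the log2 scale (SE 0.10, two-sided exact permutation p = 0.1).

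CASTOR1, the cytosolic arginine sensor, was near the limit of detection. Its RNA counts were 5, 5 and 2 in starved libraries, against 18, 8 and 6 in fed libraries, or 0.683, 0.808 and 0.295 CPM against 2.26, 1.71 and 0.865 CPM. Every starved library was below every fed one, by a small margin between the nearest pair. The same held for 41.2% of all transcripts tested in RNA. The 12 starved and 32 fed counts give a CPM ratio of 0.362 (exact 95% interval 0.170 to 0.722, counting error only). The gene did not pass the filter. Without that filter its RNA log2 fold change was −1.32 (SE 0.50, edgeR adjusted p = 0.0177). In that fit 4013 of the 15054 transcripts tested were called lower, so such a call was common.

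SLC7A3, the carrier known from neurons, had no RNA count in any of the 6 libraries. A count of 0 allows up to 0.148 CPM in starved and 0.153 CPM in fed cells (3 counts over the group).

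Footprints increased on SLC7A1 and, less firmly, on SLC7A2. SLC7A1 footprints rose 1.93-fold and those of SLC7A2 1.40-fold, while SLC7A6 and SLC38A9 did not pass the test. Of the 6 genes 4 passed the filter and 2 of these were called, both higher. Over all 13457 transcripts tested for footprints, 39.8% were called, 18.9% higher and 20.9% lower. The spread between footprint libraries was wider than in RNA, with a biological coefficient of variation of 13.7% against 5.75%, so a change of a given size is harder to detect. Why SLC7A6 missed the threshold in footprints was not tested.

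**Figure D2:**
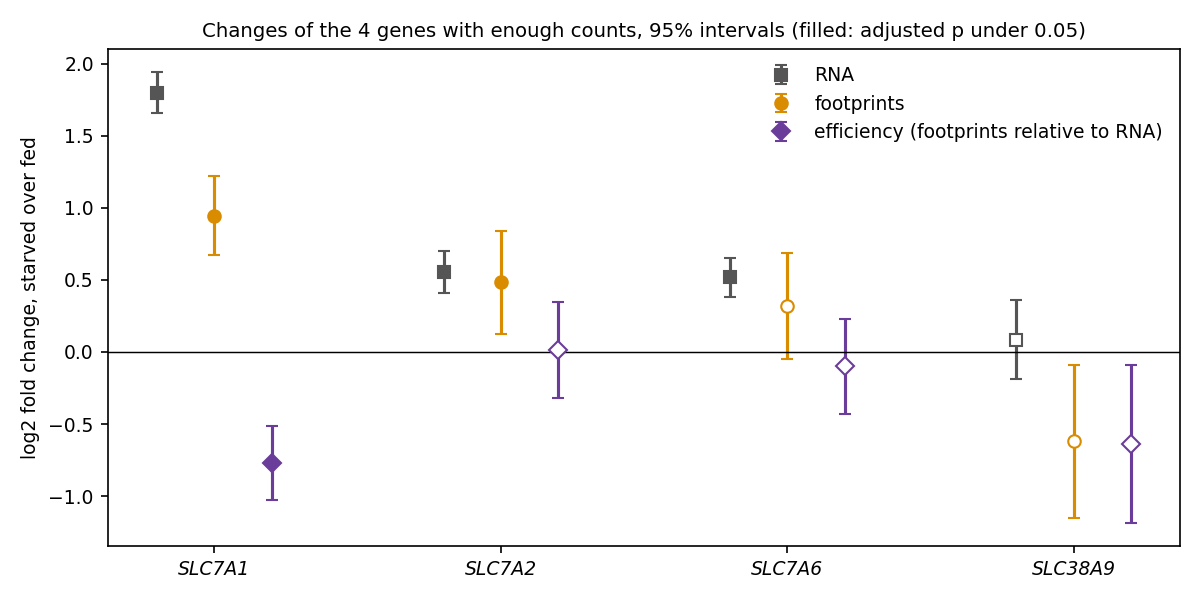
Log2 fold change, starved over fed, in RNA (squares), footprints (circles) and translational efficiency (diamonds) for the 4 genes with enough counts, with 95% intervals and filled symbols for adjusted p under 0.05 in edgeR. SLC7A1 stands at 1.80 in RNA, 0.95 in footprints and −0.77 in efficiency, and the efficiency intervals of SLC7A2 and SLC7A6 include 0.

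SLC7A1 footprints were 229, 272 and 269 CPM in starved libraries, against 139.5, 117 and 129 CPM in fed libraries. The groups were well apart. The means were 257 ± 24.0 CPM in starved and 129 ± 11.2 CPM in fed cells (SD, n = 3 each), which is 0.95 higher on the log2 scale, with an SE of 0.13 and an edgeR adjusted p = 9.69e-05. It was called under each of the 12 alternatives, between 0.86 and 1.08.

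SLC7A2 footprints were 62.5, 75.3 and 57.1 CPM in starved libraries, against 43.1, 52.8 and 39.2 CPM in fed libraries. The groups did not overlap, though the lowest starved and highest fed libraries were close. The log2 fold change was 0.48 with an SE of 0.16 and an edgeR adjusted p = 0.0336, from means of 65.0 ± 9.35 CPM in starved and 45.0 ± 7.02 CPM in fed cells (SD, n = 3 each). The call was lost without starved replicate 2 (adjusted p = 0.131), fed replicate 1 (0.128) or fed replicate 3 (0.154) in edgeR, without the filter on low counts (0.0638) and with the Wald test of DESeq2 (0.0613).

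SLC7A6 footprints were 50.5, 69.3 and 70.8 CPM in starved libraries, against 45.1, 46.0 and 58.1 CPM in fed libraries. Starved replicate 1 lay inside the fed range and the other two starved libraries above it. The means were 63.5 ± 11.3 CPM in starved and 49.7 ± 7.22 CPM in fed cells (SD, n = 3 each). The log2 fold change of 0.32 had an SE of 0.17 and missed the threshold at an edgeR adjusted p of 0.149. It passed under 1 of the 12 alternatives, without starved replicate 1, the lowest starved library, at 0.44 (edgeR adjusted p = 0.0324).

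SLC38A9 footprints were 10.3, 9.55 and 10.4 CPM in starved libraries, against 17.6, 9.21 and 17.0 CPM in fed libraries. Fed replicate 2 was below all starved libraries and the other two fed libraries well above them, on 24 to 38 counts per starved and 19 to 77 per fed library. The means were 10.1 ± 0.454 CPM in starved and 14.6 ± 4.69 CPM in fed cells (SD, n = 3 each). The log2 fold change of −0.62 (SE 0.24) missed the threshold, with an edgeR adjusted p of 0.0604 and an unadjusted p of 0.0254. It passed under 3 of the 12 alternatives tried. These were without fed replicate 2, the low fed library, at −0.86 (edgeR adjusted p = 0.0106), after removal of the trend with abundance (0.0491) and without the filter (0.048). The others did not pass, among them the fit without fed replicate 1, at −0.45 (edgeR adjusted p = 0.272), and the Wald test of DESeq2 (adjusted p = 0.16).

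CASTOR1 and SLC7A3 carried few footprints. CASTOR1 had 6, 7 and 5 footprint counts in starved libraries, against 13, 0 and 4 in fed libraries, and the groups overlapped. The CPM ratio was 1.03 with an exact 95% interval of 0.499 to 2.12, which covers counting error only, and the fed libraries spread more widely than the starved ones. SLC7A3 had 5, 10 and 12 footprint counts in starved libraries, against 9, 5 and 5 in fed libraries. Its levels of 2.99 ± 0.744 CPM in starved and 2.28 ± 0.193 CPM in fed cells (SD, n = 3 each) overlapped, with a CPM ratio of 1.38 (exact 95% interval 0.738 to 2.62, counting error only).

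Footprints of SLC7A1 rose less than its RNA, while for SLC7A2 and SLC7A6 no difference between the assays passed the test. Footprints relative to RNA, or translational efficiency, were compared between treatments through the interaction term of 1 model over all 12 libraries. That model gave both assays the same dispersion (coefficient of variation 8.54%), although footprint libraries varied more than RNA libraries. Its SE was below that of footprints alone for SLC7A1 (0.123 against 0.125), SLC7A2 and SLC7A6, and above it for SLC38A9 (0.263 against 0.244). Efficiency intervals and p-values may therefore be too small. Of the 4 genes tested 1 was called, SLC7A1, with lower efficiency in starved cells. Over all 11027 transcripts tested, 22.9% were called, 11.1% higher and 11.8% lower, or 1227 and 1296, against 1472 higher and 870 lower with library totals.

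**Figure D3:**
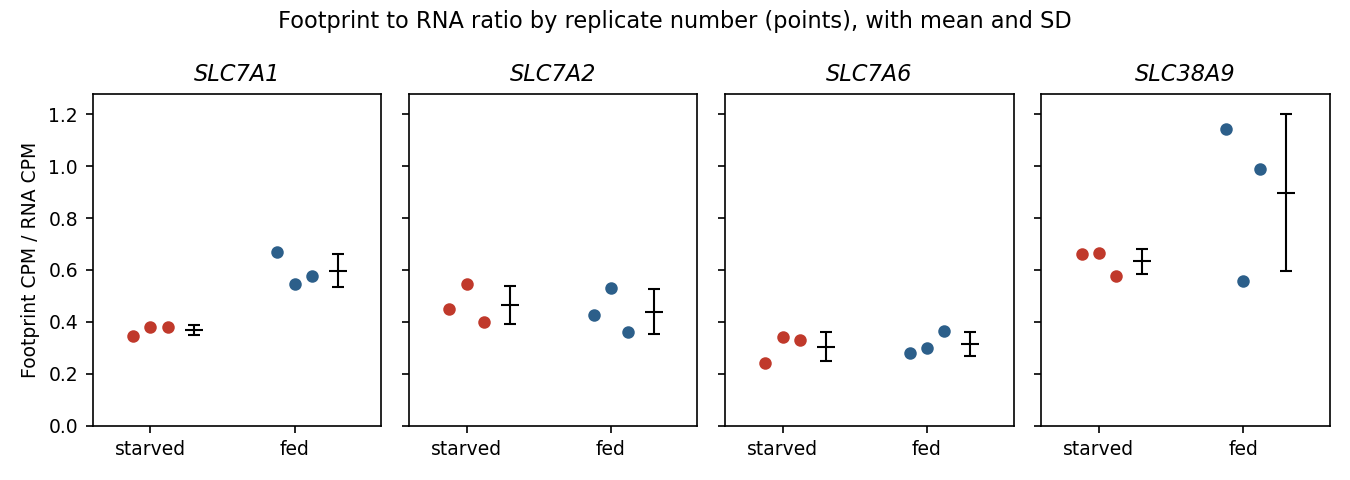
Footprint CPM divided by RNA CPM for the 4 tested genes, with the RNA and footprint library of the same treatment and replicate number paired, on a shared linear axis that starts at 0. Points are replicate numbers 1 to 3 of starved (red) and fed (blue) cells and bars give mean and SD. SLC7A1 lies between 0.346 and 0.381 in starved and between 0.547 and 0.670 in fed cells, while the points of SLC7A2, SLC7A6 and SLC38A9 overlap between treatments.

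The footprint to RNA ratio of SLC7A1 was 0.346, 0.379 and 0.381 in starved cells, against 0.670, 0.547 and 0.575 in fed cells. All starved values were below all fed ones. The shared number is not known to mark a shared culture. Over all 9 pairs of an RNA and a footprint library of a treatment, tried after the values were seen, the ratio ran from 0.319 to 0.411 in starved and from 0.521 to 0.670 in fed cells. The ratio averaged 0.369 ± 0.0197 in starved and 0.597 ± 0.0645 in fed cells (SD, n = 3 each), and the efficiency change was −0.77 in log2 units with a 95% interval of −1.03 to −0.51 (edgeR adjusted p = 0.00019). It was called lower under each of the 19 alternatives tried, between −0.87 and −0.55, all of which also gave both assays the same dispersion. The median ratio over all 11027 transcripts was 0.919 in starved and 0.878 in fed cells, and 12.3% of transcripts had a lower ratio than SLC7A1 in starved cells, against 32.0% in fed cells. Ratios between genes also depend on which part of each transcript was counted, which is not given in the sources used here.

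SLC7A2 had a ratio of 0.465 ± 0.0729 in starved and 0.440 ± 0.0861 in fed cells (SD, n = 3 each). Its efficiency differed by 0.016 on the log2 scale, with an interval of −0.32 to 0.35 (edgeR adjusted p = 0.962). SLC7A6 had a ratio of 0.304 ± 0.0558 in starved and 0.315 ± 0.0456 in fed cells (SD, n = 3 each), and its efficiency differed by −0.099 with an interval of −0.43 to 0.23 (edgeR adjusted p = 0.695). Both intervals include changes in either direction, so equal efficiency was not shown. SLC38A9 had a ratio of 0.633 ± 0.0487 in starved and 0.897 ± 0.303 in fed cells (SD, n = 3 each), an efficiency difference of −0.64 (SE 0.26, edgeR adjusted p = 0.0881). That difference passed under 2 of the 19 alternatives. These were without fed footprint replicate 2, at −0.84 (edgeR adjusted p = 0.0157), and with the abundance trend removed, at −0.81 (0.0382). It did not pass under the others, among them the fit without fed footprint replicate 1, at −0.45 (edgeR adjusted p = 0.324).

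SLC7A1 was also higher relative to the other carriers in starved footprint libraries; whether these differences vary between the assays was not tested. SLC7A1 footprint counts were 3.67, 3.62 and 4.71 times those of SLC7A2 in starved libraries, against 3.24, 2.22 and 3.30 times in fed libraries, a log2 difference of 0.47 (SE 0.22, two-sided exact permutation p = 0.1, adjusted 0.1). Relative to SLC7A6 they were 4.54, 3.93 and 3.80 times in starved libraries, against 3.09, 2.55 and 2.23 times in fed libraries, a log2 difference of 0.65 (SE 0.16, exact permutation p = 0.1, adjusted 0.1). SLC7A1 held 66.6%, 64.8% and 67.2% of the combined footprints of the 4 SLC7A carriers in starved libraries, against 60.7%, 53.7% and 56.5% in fed libraries.

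**Figure D4:**
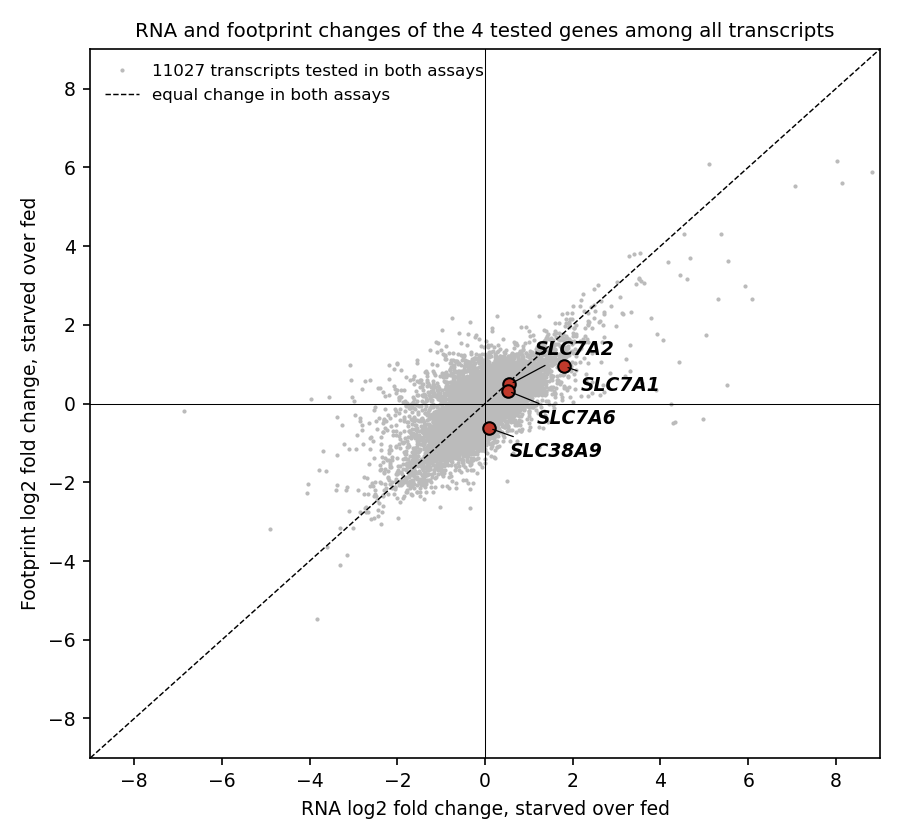
Footprint against RNA log2 fold change, starved over fed, for the 11027 transcripts tested in both assays (grey) and for SLC7A1, SLC7A2, SLC7A6 and SLC38A9 (red), with the line of equal change dashed. SLC7A1 lies right of the cloud's centre and below the line, at 1.80 in RNA and 0.95 in footprints, SLC7A2 and SLC7A6 lie just below the line, and SLC38A9 lies below it at 0.086 and −0.62.

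A footprint change smaller than the RNA change was common among transcripts whose RNA rose as much as that of SLC7A1. The 143 other transcripts with an RNA log2 fold change within 0.25 of that of SLC7A1 had a median footprint log2 fold change of 1.24 (quartiles 0.85 and 1.62), and 40 of them (28.0%) had a lower one than SLC7A1. Among the 89 of these whose average log2 CPM reached 4 in each assay the median was 1.38, and 13 (14.6%) were lower. For SLC7A2 the median of 2248 such transcripts was 0.30 and for SLC7A6 that of 2392 was 0.27, beside 0.48 and 0.32 for the genes themselves. For SLC38A9 the median of 3455 transcripts was −0.037, and 232 (6.71%) had a lower footprint change than its −0.62. These comparisons are descriptions across transcripts, which are not replicates, and were chosen after the values were seen. The transcripts were picked by their RNA change alone. That choice can by itself give smaller footprint changes where RNA values are noisy, which was not tested.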

How the data were processed

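The authors deposited raw counts for each Ensembl transcript, 1 table per assay; all values were whole numbers with unequal library totals. RNA libraries came from a TruSeq kit and footprint samples were depleted of ribosomal RNA with RiboCop, per the labels' protocols. The submitters' processing notes name DESeq2, STAR, UMI-tools and cutadapt and the build GRCh38.p13. Their roles and versions, the counter, the counted region and the handling of multiply mapping reads are not given in the sources. Reads shared by isoforms or near-identical copies are therefore uncertain.

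Transcripts were tied to genes by the identifiers listed for the 6 genes, since the tables hold no gene names. All 6 were named, whatever their values. The wider list of carriers, partners and sensors, the transcripts most like each gene, protein comparisons and levels per coding length were not analysed here for want of names and proteins in the tables used. Members and lists were chosen with earlier results of these data known, and the GC box search and the ratios between genes were added after the values had been seen.

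Counts were tested with edgeR 4.0.16 (R 4.3.3) with TMM factors and filterByExpr, each assay with treatment as the only term, and efficiency as the interaction of assay and treatment with TMM factors within each assay. SE is the absolute log2 fold change over the root of F. CPM printed per library are counts per 1e+06 of the deposited table's total. Permutation tests used scipy 1.17.1. Intervals are at 95%, and a count of 0 allows 3 counts. The median SE over all tested transcripts was 0.10 for RNA, 0.19 for footprints and 0.20 for efficiency. No libraries were identical. Alternatives were median-of-ratios factors, library totals, an abundance trend removed (loess, span 0.4), no filter, the replicate number as a block, for efficiency also a block for RNA and footprint libraries of the same treatment and number, each library left out, and DESeq2 1.42.0 with its Wald test.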

Additional observations from a re-analysis of the deposited data

Results flagged for a closer look

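The change of SLC7A1 differed between the assays: with the same contrast of starved against fed cells, RNA rose by 1.80 and footprints by 0.95 on the log2 scale, and the interaction that tests this difference was −0.77 (SE 0.12, edgeR adjusted p = 0.00019). The interaction comes from 1 fit over both assays and so is not exactly the difference of the 2 separate values. That fit gave both assays the same dispersion, so its SE and p-value may be too small. SLC7A1 is 1 of 1296 transcripts called lower in efficiency.

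SLC7A3 gave 46 footprint counts over the 6 libraries, 27 in starved and 19 in fed cells, with no RNA count at all, so neither its RNA nor its efficiency could be compared. The RNA limit over all 6 libraries was 0.0753 CPM and the footprints came to 2.65 CPM. The ratio of these values was 35.2, which leaves out counting error in the 46 footprints and so is not a lower bound. Of the 19686 transcripts of the RNA table, 4632 had no RNA count, so a lack of RNA counts was common. Among these 4632, 1206 had more footprints than SLC7A3, and the median of the 4632 was 18.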

How the results depend on the processing

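The calls of SLC7A1 in RNA, footprints and efficiency and of SLC7A2 and SLC7A6 in RNA held under every alternative run for them. Of 172 values of single genes under an alternative, 149 kept direction and side of the threshold, 5 lost and 6 gained a call and 12 changed sign, all 12 among uncalled changes. The number of genes called lower in RNA, 0, was 1 without the filter and 0 to 1 with a library left out, through CASTOR1 each time; with a library left out CASTOR1 entered the fit only through fed replicates 1 and 2, where it is high, so those calls are no support for a fall. The number called higher in footprints, 2, was 1 without the filter and with DESeq2, and 1 to 3 with a library left out; the number called lower, 0, was 1 without the filter and with the abundance trend removed, and 0 to 1 with a library left out. The number called lower in efficiency, 1, was 2 with the trend removed and 1 to 2 with a library left out. Signs turned for SLC38A9 in RNA (−0.028 with library totals; −0.011 to 0.17 with a library left out) and, in efficiency, for SLC7A2 (−0.079 without the filter; −0.10 to 0.14) and SLC7A6 (0.079 with the trend removed; −0.20 to 0.012). The causes were not tested, apart from the filter, which CASTOR1 passes or not by its construction. Over all transcripts, library totals gave 2864 higher and 2593 lower footprint calls, against 2547 and 2812. SLC38A9 footprints, CASTOR1 and SLC7A3 rest on few counts per library.

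With the replicate number as a block the counts of called genes stayed at 3 higher in RNA, 2 higher in footprints and 1 lower in efficiency. Efficiency alone was also fitted with each RNA and footprint library of the same treatment and number as a block, which again gave 1 lower. Same-numbered starved and fed libraries did not deviate together: correlations were −0.013, 0.0055 and 0.098 in RNA and −0.25, −0.048 and −0.039 in footprints, so the numbers were not taken to pair them. Between footprint and RNA libraries of the same treatment and number the correlations were 0.12, 0.039 and −0.0084 in starved and 0.035, 0.041 and −0.022 in fed cells. With different numbers they ran from −0.104 to 0.083 in starved and from −0.057 to 0.026 in fed cells. The highest value of each treatment came from a shared number, but not every shared number stood out. Whether the numbers pair these libraries was therefore not settled.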
